A study of Oryza sativa with 36 samples.

Results

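The comparison described here set the endosperm of rice seeds against the embryo after 16 h of imbibition. It used 6 of the 36 arrays of the study: endosperm replicates 1, 2 and 3 and embryo replicates 1, 4 and 5, taken from the labels. The whole study followed both tissues over 24 h of water uptake at 6 times, with 3 arrays per tissue and time. Total RNA was hybridised to Affymetrix rice arrays, 1 colour, after an amplification step. All 6 samples were wild type Oryza sativa, with the cultivar given as Nipponbare for 5 of them and not named for embryo replicate 1. Seeds of both groups were kept in the dark at 30 °C in sterile distilled water through which air was bubbled, and nothing else was added. The 0 h groups used further on carry the same labels with no time in water. The tissue label of the embryo samples is embryo, while their growth protocol names the embryonic axis, so the labels do not settle whether the scutellum was included. The labels also do not say whether the endosperm samples kept the aleurone layer or the seed coat. Embryo and endosperm samples at 16 h came from 5 harvest days, and only 1 of these days, that of replicate 1, held both tissues. The sources used here do not say how many seeds made up a sample.

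The cereal endosperm is a store. Its starchy cells fill with starch and storage proteins during grain development and are dead at maturity, and their stored RNA can outlast them. The aleurone layer around them stays alive and secretes hydrolases when gibberellin reaches it during germination. The embryo carries the meristems, takes up the products of reserve breakdown through the scutellum, and must restart respiration, wall loosening and cell division to become a seedling. Comparing the tissues at 16 h asks how transcripts of storage, mobilisation and growth were divided between them shortly before or around the time that growth becomes visible.

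Of 57381 probe sets on the array, 57194 for rice were tested, after 123 Affymetrix controls and 64 reporter probe sets were left out. They named 17905 genes, each followed by its brightest probe set, and 2454 of these had an informative name. Values are log2 GCRMA signals as deposited, so that a difference of 1 is a 2-fold difference, and each difference below is endosperm minus embryo with the standard error of the limma fit to all 36 arrays (n = 3 arrays per tissue). A call required a difference of at least 1 in size and a p below 0.05 after Benjamini-Hochberg adjustment over all rice probe sets. Replicates of a tissue at 16 h correlated at 0.995 to 0.997 over probe sets. The labels do not say that replicates came from separate seed lots, so a p-value speaks only of the variation among these arrays, which may be technical.

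The value distributions of the tissues differed, and this touches every count that follows. The 75th percentile of the arrays was 4.47 ± 0.02 in endosperm and 5.72 ± 0.06 in embryo (SD, n = 3), whereas the medians were 2.74 and 2.81. The hybridisation spike-ins did not separate the tissues, at 10.2 ± 0.19 and 9.93 ± 0.27 (exact permutation test, two-sided, p = 0.3). Control probes for ribosomal RNA read 7.20 ± 0.19 in endosperm and 8.45 ± 0.06 in embryo, and the 3′ minus 5′ signal of control transcripts, a sign of shortened RNA, was 3.07 ± 0.11 and 1.56 ± 0.06. For both of these the exact permutation p was 0.1, the smallest that 3 against 3 arrays allow. The part of RNA length and of the RNA mixture in the tissue differences was not tested. In bulk tissue, fewer cells of a kind and less RNA per cell cannot be told apart.

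Because of this, the 6 arrays were also quantile normalised to a common distribution and fitted again, and a gene is described as higher or lower only if it was called the same way under both scalings. In the deposited values 953 genes were called higher in endosperm (5.32% of those tested) and 8565 lower (47.8%). After quantile normalisation 2398 were higher (13.4%) and 2721 lower (15.2%). All 953 and all 2721 were called under both scalings, again 5.32% and 15.2%. The counts of gene lists further on are to be read beside these shares. The median difference of all genes was −0.93 in the deposited values and −0.004 after quantile normalisation. Centring each array on its 75th percentile moved it to 0.32 and called 32.4% of genes higher and 12.9% lower, so the balance of the directions is set by the scaling. On the level of probe sets, 1651 were higher (2.89%) and 13320 lower (23.3%) as deposited, 3891 (6.80%) and 4429 (7.74%) after quantile normalisation, and 36345 (63.5%) and 3541 (6.19%) after centring.

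Among the named genes, the 10 highest in endosperm were the same in the orders from both scalings, and the 50 highest shared 49. Those highest in embryo shared 9 of 10 and 46 of 50. These orders held only named genes already called under both scalings with fully separate arrays. Quantile normalisation also keeps the order of values within an array. Much of this agreement was thus fixed in advance and does not measure how far the scaling matters. Among the 953 genes, 265 (27.8%) lay at the floor in embryo, meaning that their mean was below the array median of that tissue plus 0.5, and 1028 of the 2721 (37.8%) lay at the floor in endosperm. Differences of such genes understate the true ratio. Another 3523 genes lay at the floor in both tissues. In 17.8% of genes all endosperm arrays lay above all embryo arrays, and in 69.4% all embryo arrays lay above, as deposited.

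**Figure D1:**
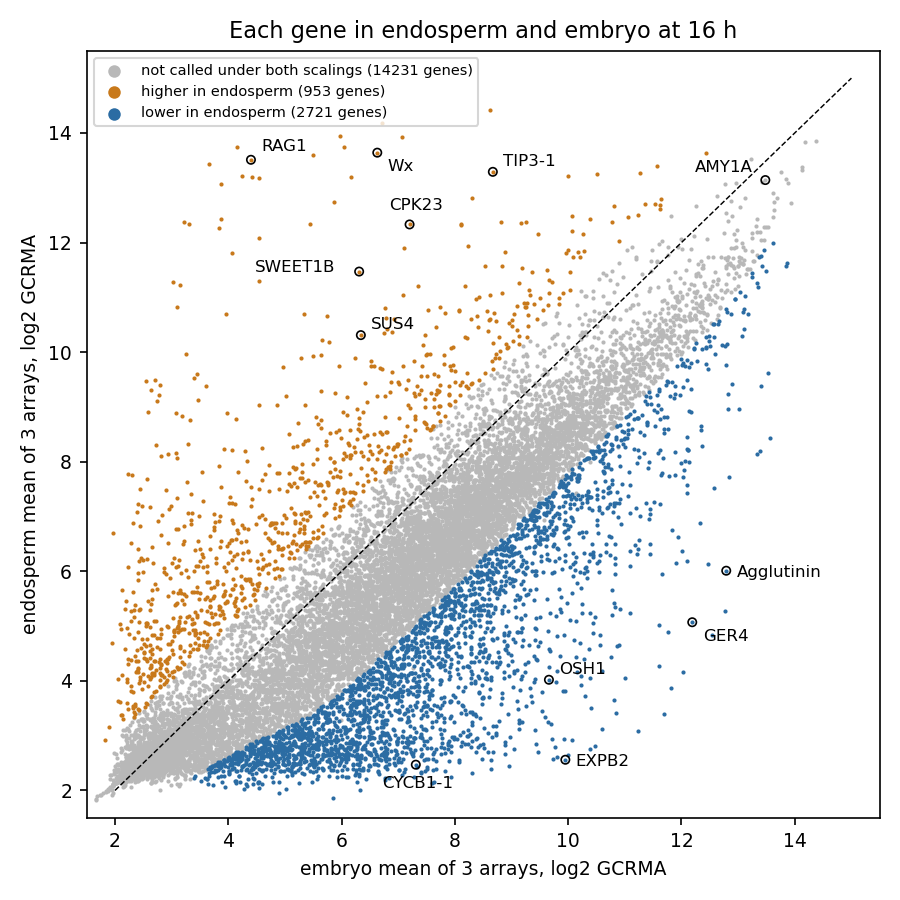
Mean log2 GCRMA signal of each of the 17905 genes in embryo (horizontal axis) and endosperm (vertical axis) at 16 h, 3 arrays each, with equal levels on the dashed line. Orange points are the 953 genes higher and blue points the 2721 genes lower in endosperm under both scalings, and circles mark named genes such as RAG1 (difference 9.11), AMY1A (−0.33) and EXPB2 (−7.39).

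**Figure D2:**
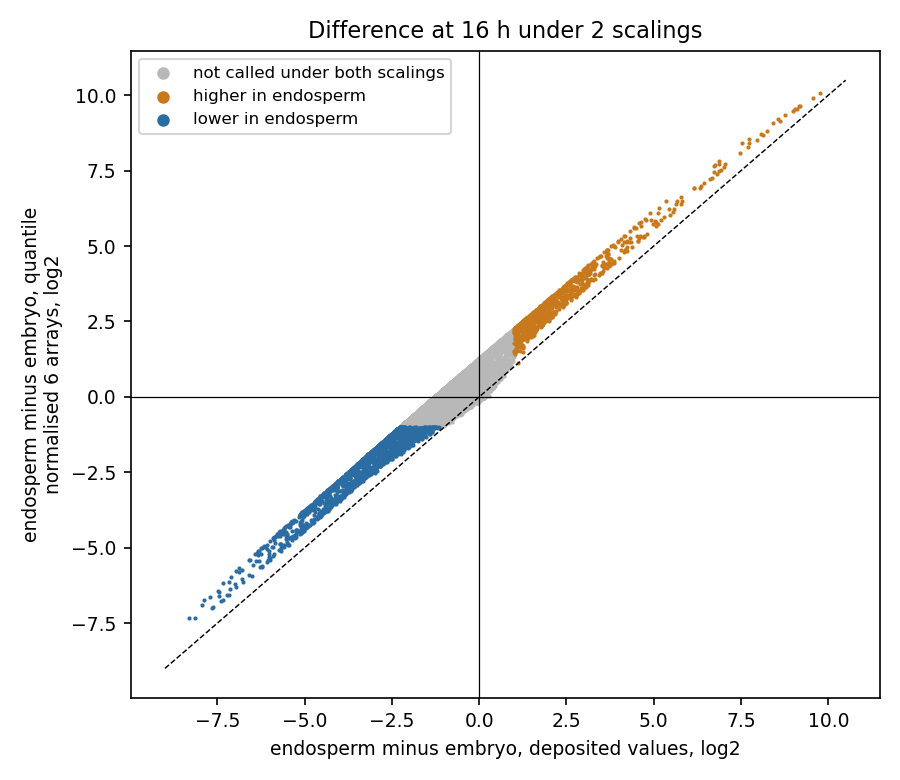
Endosperm minus embryo difference of each gene at 16 h in the deposited values (horizontal, log2) and after quantile normalisation of the 6 arrays (vertical, log2). Most points lie above the dashed line of equality, and the median of all genes is −0.93 on the horizontal and −0.004 on the vertical axis.

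The tissue labels were checked against marker genes. Of 13 genes of the starchy endosperm, 12 were higher in endosperm and 0 lower, and their summed signal was 16.91 to 17.01 (log2) on endosperm arrays against 9.16 to 10.94 on embryo arrays. Of 15 meristem genes of the embryo, 8 were lower in endosperm and 0 higher, with summed signals of 7.63 to 8.17 and 11.1 to 11.2. In endosperm 9 of these 15 were at the floor, as were 4 of them in embryo. Of 7 genes of secretion by the aleurone and by the epithelium of the scutellum, 3 were higher in endosperm and 0 lower. In endosperm 1 was at the floor and in embryo 2. Their summed signal was 14.4 to 14.5 in endosperm and 13.6 to 14.2 in embryo. Of 2 pericarp markers, for flavonoid synthesis, 1 was lower in endosperm under both scalings, with summed signals of 7.61 to 7.88 in endosperm and 10.9 to 11.2 in embryo. The 3 green tissue markers were at the floor in both tissues. Oleosin genes, planned as markers of the scutellum, are not part of this check.

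The largest differences towards endosperm were those of the seed storage proteins, the nitrogen reserve of the grain. Of 10 such genes, 9 were higher in endosperm and 0 lower, beside 5.32% and 15.2% of all genes, with a median difference of 8.33 as deposited and 8.91 after quantile normalisation. The exception, the glutelin gene GluB4, was at the floor in both tissues. RAG1, a seed allergen of the albumin type, read 13.42, 13.57 and 13.54 on the endosperm arrays and 5.11, 4.67 and 3.40 on embryo replicates 1, 4 and 5. The endosperm arrays lay close together and far above all embryo arrays. The difference was 9.11 ± 0.51 (adjusted p = 1.44e-14), or 554-fold, and 9.56 after quantile normalisation, or 753-fold. The glutelin gene GLUA2 read 13.54, 13.58 and 13.69 in endosperm and 6.61, 5.86 and 3.98 in embryo, and the difference was 8.12 ± 0.52. PROLM25, for a prolamin, an alcohol-soluble storage protein, read 14.16, 14.21 and 14.21 against 7.69, 7.0 and 5.47, a difference of 7.47 ± 0.51. GLUA1, GLUA3, GLUD1 and GluB5, all glutelins, and the allergen gene RA5 differed by 7.71 to 8.98. The smallest called difference was that of the allergen RAG2, 5.78 ± 0.56, whose embryo values still reached 9.76. Glutelins, prolamins and the allergens are families of close copies, and the sharing of probes between their members was not checked.

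The embryo arrays did not agree on these genes as well as the endosperm arrays did. The median of the 9 genes was 13.42, 13.57 and 13.54 in endosperm, but 5.35, 5.18 and 3.74 on embryo replicates 1, 4 and 5. In all 9 genes replicate 5 was the lowest and replicate 1 the highest embryo array, whereas over all genes replicate 5 was the lowest in 4311 of 17905. All 9 stayed called when any 1 of the 6 arrays was left out, and RAG1 without embryo replicate 5 differed by 8.62.

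Of 8 genes of starch synthesis, 4 were higher in endosperm and 1 lower under both scalings, beside 5.32% and 15.2% of all genes. The median difference was 1.73 (2.89 after quantile normalisation). Wx, the granule-bound starch synthase that makes amylose, read 13.74, 13.60 and 13.58 in endosperm and 7.77, 7.32 and 4.82 in embryo. Here too the tissues were far apart and embryo replicate 5 was the lowest, and the difference was 7.01 ± 0.53, with 5 of 6 probe sets called higher. Sbe1, a branching enzyme, was higher by 3.69 ± 0.17. The soluble starch synthases of type II parted: SSII-3 was higher in endosperm by 4.21 ± 0.29, with embryo at the floor, and SSII-2 was lower by −2.92 ± 0.12, with endosperm at the floor.

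**Figure D3:**
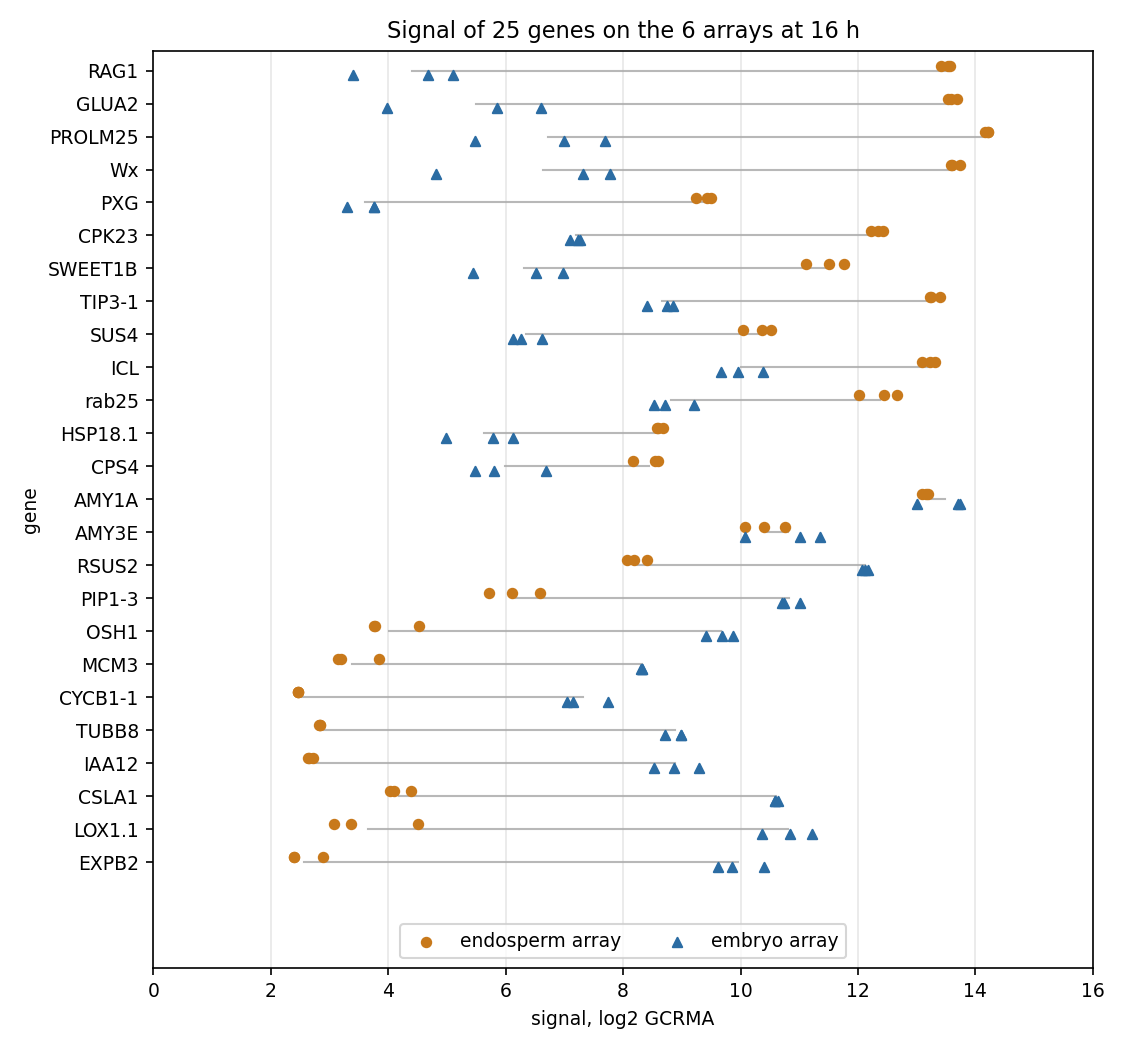
Log2 GCRMA signal of 25 genes on each of the 6 arrays at 16 h, with endosperm arrays as orange circles, embryo arrays as blue triangles and a grey line between the tissue means. Storage and mobilisation genes at the top have endosperm on the right, AMY1A and AMY3E overlap, and the genes from RSUS2 down have embryo on the right.

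Genes of reserve mobilisation did not share 1 pattern, where 5.32% of all genes were higher in endosperm and 15.2% lower under both scalings. Of 5 genes of starch breakdown, 1 was higher in endosperm and 0 lower, and the median difference was 0.03 (0.74 after quantile normalisation). Alpha-amylases are the starch-degrading enzymes that germinating cereals secrete, and their isoforms parted. AMY1A, the main gibberellin-induced isoform, read 13.09, 13.19 and 13.16 in endosperm and 13.70, 13.74 and 13.00 in embryo. The embryo arrays lay on both sides of the endosperm arrays, and the difference of −0.33 ± 1.0 did not pass the test (adjusted p = 0.791). AMY3E also overlapped, at 10.07, 10.75 and 10.40 against 11.02, 11.35 and 10.07, with a difference of −0.41 ± 0.32 (adjusted p = 0.259) that took the other sign, 0.74, after quantile normalisation. AMY3A was higher in endosperm, at 6.95, 5.73 and 6.89, while the embryo arrays lay at the floor near 2.28. Its difference was 4.24 ± 0.31. Of 5 amylase and protease inhibitors, 2 were higher in endosperm and 1 lower under both scalings (median −0.31, and 0.86 after quantile normalisation). RASI, an inhibitor of alpha-amylase and subtilisin, was 5.36 ± 0.36 higher in endosperm. The oryzacystatin OC-II, a cysteine protease inhibitor named here after its values were seen, was higher by 3.23 ± 0.34. RBBI3.3, a Bowman-Birk trypsin inhibitor, was lower by −2.28 ± 0.10, and the oryzacystatin OC-I was lower by −1.91 ± 0.11 in the deposited values only. The aspartic protease gene AP25 was lower in endosperm, by −5.71 ± 0.26.

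All 3 listed genes of oil bodies and fat breakdown, PXG, ICL and MS, were higher in endosperm. Over all genes 5.32% were higher and 15.2% lower under both scalings. The median difference of the 3 was 3.21 (3.91 after quantile normalisation), and the list held no oleosin gene. In cereal grains oil is held by the aleurone and the embryo. PXG, a peroxygenase of the caleosin family found on oil bodies, read 9.24, 9.50 and 9.43 in endosperm and 3.75, 3.29 and 3.75 in embryo, a difference of 5.79 ± 0.33. The glyoxylate cycle, which turns acetyl units from fat into sugar precursors, was represented by both of its special enzymes. ICL, isocitrate lyase, read 13.32, 13.09 and 13.22 in endosperm and 10.38, 9.95 and 9.67 in embryo, with no overlap and a difference of 3.21 ± 0.16. MS, malate synthase, was higher by 2.13 ± 0.19. Of 10 genes of phytate and inositol metabolism, which handles the phosphate store of the seed, 5 were higher in endosperm and 0 lower (median 0.96, and 2.18 after quantile normalisation). They included ITPK4 and ITPK3, inositol phosphate kinases, at 2.49 ± 0.22 and 1.91 ± 0.23, and LPA2 at 1.51 ± 0.10. IPK2 was lower by −2.02 ± 0.16 in the deposited values but not after quantile normalisation. The phosphorylation of sucrose synthase in developing seed is a known role of the calcium-dependent kinase CPK23, named SPK in earlier work. CPK23 read 12.22, 12.43 and 12.35 in endosperm and 7.27, 7.09 and 7.24 in embryo. With replicates this tight, its difference of 5.13 ± 0.18 had an adjusted p of 1.36e-18.

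Of 8 genes for LEA proteins and dehydrins, which protect cells during drying, 4 were higher in endosperm and 0 lower under both scalings. Over all genes 5.32% were higher and 15.2% lower. The median difference of the 8 was 0.76 (1.43 after quantile normalisation). The LEA gene rab25 read 12.66, 12.01 and 12.44 in endosperm against 8.71, 8.53 and 9.20 in embryo, a difference of 3.55 ± 0.34. RAB16B and RAB21, dehydrins induced by abscisic acid, differed by 1.43 ± 0.29 and 1.19 ± 0.14. RAB21 fell below the size for a call, at 0.93, when arrays were centred on the spike-ins. The dehydrin Dhn1 was lower by −2.08 ± 0.30 in the deposited values only. From 0 to 16 h all 8 genes fell in embryo and 6 fell in endosperm, against 16.7% of all genes falling in embryo and 7.46% in endosperm.

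Of 43 heat shock proteins and factors, 12 were higher in endosperm and 2 lower under both scalings, beside 5.32% and 15.2% of all genes. Their median was near 0 (0.09, and 0.88 after quantile normalisation). The small heat shock protein gene HSP18.1, a chaperone of dry seeds, read 8.58, 8.60 and 8.68 in endosperm and 4.99, 6.13 and 5.78 in embryo, a difference of 2.99 ± 0.54. HSP17.9A was higher by 2.70 ± 0.47. HSP16.9B was higher by 2.40 ± 0.73, with embryo replicate 1 the lowest at 6.06, and without that array its adjusted p was 0.058. HSFB4B, a class B heat shock factor, was lower by −4.22 ± 0.17. R1C-Prx, the 1-Cys peroxiredoxin that marks aleurone and embryo of dry seeds, was higher by 1.99 ± 0.22.

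In sugar, water and nitrogen metabolism, some families had members on both sides. Of 30 genes of glycolysis, sucrose and fermentation 1 was higher and 5 were lower under both scalings, near the 5.32% and 15.2% of all genes. Sucrose synthases split sucrose for starch, wall and energy metabolism. SUS4 read 10.05, 10.52 and 10.36 in endosperm and 6.13, 6.26 and 6.62 in embryo, a difference of 3.97 ± 0.26. RSUS2 read 8.06, 8.41 and 8.19 in endosperm and 12.12, 12.17 and 12.07 in embryo, a difference of −3.90 ± 0.37. In each gene the tissues were fully separate, in opposite directions. RSUS1 was lower by −4.67 ± 0.36, as was CIN1, a cell wall invertase, by −5.08 ± 0.27. These directions were the same after quantile normalisation, at 5.18 for SUS4 and −2.75 for RSUS2.

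Sugar exporters of the SWEET family split in the same manner. SWEET1B read 11.50, 11.12 and 11.77 in endosperm and 6.97, 6.52 and 5.45 in embryo, a difference of 5.15 ± 0.41, while SWEET1A was lower by −3.92 ± 0.20. Of all 18 sugar transporters 3 were higher and 2 lower under both scalings, beside 5.32% and 15.2% of all genes. Among 25 aquaporins, the water channels, 2 were higher and 11 lower in endosperm (median −1.67, and −0.57 after quantile normalisation). TIP3-1, a channel of the vacuole membrane typical of seeds, read 13.39, 13.24 and 13.23 in endosperm and 8.85, 8.41 and 8.74 in embryo, a difference of 4.62 ± 0.28. Of 10 PIP genes, for channels of the plasma membrane, 8 were lower and 0 higher under both scalings, with PIP2-4 at −5.48 ± 0.41 and PIP1-3 at −4.69 ± 0.35, and 1 was at the floor in both tissues. NIP1-1 of the NIP subfamily was lower by −5.68 ± 0.27. Cytosolic glutamine synthetase, which assimilates ammonium, parted into GLN1-3, higher by 3.69 ± 0.28, and GLN1-2, lower by −4.30 ± 0.47 with endosperm at the floor. Embryo replicate 5 was the lowest for GLN1-2, at 6.26 against 7.70 and 7.35. Over 16 nitrogen genes, 1 was higher and 3 were lower, also near the shares of all genes.

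Genes of wall growth were brighter in embryo. Of 30 expansins and xyloglucan enzymes, which loosen and rebuild the growing wall, 0 were higher in endosperm and 17 lower under both scalings, beside 15.2% of all genes lower, and the median difference was −2.42 (−1.34 after quantile normalisation). The beta-expansin EXPB2 read 2.40, 2.40 and 2.89 in endosperm, which is the floor, and 10.40, 9.85 and 9.61 in embryo. Its difference was −7.39 ± 0.37. EXPB3 and EXPB6 were lower by −5.98 ± 0.26 and −5.64 ± 0.32. Of 29 cellulose and hemicellulose synthases 15 were lower and 2 higher, beside 15.2% and 5.32% of all genes. Their median difference was −2.40 (−1.19 after quantile normalisation). CSLA1, of the family that makes mannans, read 4.39, 4.03 and 4.10 in endosperm and 10.59, 10.64 and 10.58 in embryo, a difference of −6.42 ± 0.28. CSLC3, a cellulose synthase-like gene, was lower by −5.50 ± 0.18.

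The family that makes mixed-linkage glucan, a hemicellulose of grass walls, split again. CslF8 was lower by −5.25 ± 0.22, with endosperm at the floor, and CSLF2 was higher by 3.71 ± 0.27. Of 15 glucanases and mannanases 7 were lower and 0 higher, with the mannanase MAN1 at −4.80 ± 0.25. Among 27 beta-glucosidases, 3 were higher and 6 lower, with BGLU22 at 4.49 ± 0.32 and BGLU12 at −6.78 ± 0.36. Beside these counts, 5.32% of all genes were higher and 15.2% lower under both scalings. AT4, an acyltransferase also named PMT, which attaches p-coumarate to lignin precursors, was lower by −7.16 ± 0.39.

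Cytoskeleton genes followed the wall genes. Of 15 tubulins and actins 11 were lower in endosperm and 1 was higher, beside 15.2% and 5.32% of all genes. The median difference was −2.65 (−1.50 after quantile normalisation). The beta-tubulin TUBB8 lay at the floor in endosperm, at 2.82, 2.83 and 2.83, and read 8.98, 8.99 and 8.71 in embryo, a difference of −6.06 ± 0.35. TUBB1 and TUBB6 were lower by −4.40 ± 0.31 and −4.32 ± 0.25. The gene that was higher in endosperm was the actin ACT7, by 1.59 ± 0.12. ADF1, an actin-depolymerising factor, was lower by −5.70 ± 0.25.

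Many genes of the cell division machinery were lower in endosperm, from DNA replication to mitosis. Of 28 DNA replication genes 16 were lower in endosperm and 0 higher under both scalings, beside 15.2% and 5.32% of all genes. As deposited 25 were lower, where 47.8% of all genes were. MCM3, a subunit of the replicative helicase, read 3.19, 3.85 and 3.14 in endosperm and 8.33, 8.30 and 8.32 in embryo, a difference of −4.93 ± 0.24. RPA1B and RPA2A, subunits of the protein that coats single-stranded DNA, were lower by −5.74 ± 0.27 and −5.45 ± 0.27. Of 5 histone H2B genes 3 were lower in endosperm, with H2B at −3.02 ± 0.12 and H2B.10 at −2.84 ± 0.13.

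For mitosis, 14 of 40 cyclins, cyclin-dependent kinases and their inhibitors were lower and 1 was higher under both scalings. Over all genes 15.2% were lower and 5.32% higher. As deposited 32 of the 40 were lower, where 47.8% of all genes were (median −1.56, and −0.36 after quantile normalisation). CYCB1-1, a B-type cyclin that drives entry into mitosis, was at the floor on all endosperm arrays, at 2.46, 2.47 and 2.47, and read 7.74, 7.04 and 7.14 in embryo. The difference was −4.84 ± 0.51. The B-type kinase CDKB2-1 was lower by −5.71 ± 0.48, and a pair of genes named CYCB2 were lower by −5.09 ± 0.54 (LOC4342121) and −4.04 ± 0.42 (LOC4336670). The D-type cyclin CYCD5-2 was the gene higher in endosperm, by 3.14 ± 0.17, but its other probe set was called lower. Of 32 kinesins, the motors that move along microtubules, 17 were lower and 0 higher (median −2.19, and −1.34 after quantile normalisation), including KIN12C at −4.78 ± 0.49 and KIN14H at −3.75 ± 0.26.

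Some regulators of meristems and organ growth were lower in endosperm. Of 18 KNOX, WOX and other meristem genes 8 were lower in endosperm and 0 higher, beside 15.2% and 5.32% of all genes. At the floor in both tissues were 6 of the 18. OSH1, the KNOX homeobox gene that keeps the shoot meristem undifferentiated, read 3.78, 4.52 and 3.75 in endosperm and 9.42, 9.69 and 9.88 in embryo, a difference of −5.65 ± 0.25. HOS9 and HOS16, further homeobox genes, were lower by −5.09 ± 0.22 and −4.77 ± 0.27. QHB, which marks the quiescent centre of the root, was lower by −3.50 ± 0.16, and WOX6 by −2.98 ± 0.38. Of 29 growth-regulating and TCP factors 13 were lower and 0 higher (median −1.68, and −0.83 after quantile normalisation), with PCF3 at −4.83 ± 0.16 and GRF6 at −4.16 ± 0.26. The HD-Zip factor Hox21 was lower by −4.73 ± 0.18. On the endosperm side, NFYB1, an endosperm-specific subunit of the NF-Y factor, read 5.86, 5.65 and 6.01 against embryo arrays at the floor near 2.4, a difference of 3.42 ± 0.19. GAMYB, the MYB factor that mediates the gibberellin response of the aleurone, was higher by 2.02 ± 0.19. RSR1, a regulator of starch genes in developing endosperm, was lower by −3.58 ± 0.31.

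The auxin genes that were called were mostly lower in endosperm. Of 43 Aux/IAA repressors and auxin response factors, 18 were lower and 3 higher, beside 15.2% and 5.32% of all genes. The count of higher genes was thus near the share of all genes. The median difference was −1.40 (−0.25 after quantile normalisation). IAA12, IAA31 and IAA30, repressors that auxin itself induces in many plants, were lower by −6.22 ± 0.28, −5.70 ± 0.28 and −5.60 ± 0.31, the first with endosperm at the floor. ARF13, a response factor, was higher by 1.81 ± 0.12 with embryo at the floor. Of 6 auxin transporters 1 was lower, 0 were higher and 4 were at the floor in both tissues.

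Of 36 genes for JAZ repressors and oxylipin synthesis, 14 were lower and 2 higher, beside 15.2% and 5.32% of all genes. LOX1.1, a lipoxygenase, which adds oxygen to polyunsaturated fatty acids, read 3.37, 3.08 and 4.51 in endosperm and 11.21, 10.37 and 10.85 in embryo, a difference of −7.16 ± 0.54. The OPR family of oxophytodienoate reductases split into OPR5 at −4.59 ± 0.35 and OPR4 at 3.62 ± 0.42.

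The gibberellin and abscisic acid lists held few genes called under both scalings, where 5.32% of all genes were higher and 15.2% lower. For gibberellin 1 of 12 was higher and 0 lower. That gene, KO1 (LOC4341343), of the ent-kaurene oxidase family, is also named CYP701A8. It is counted in the diterpenoid phytoalexin list as well, as are KO1 (LOC4341347) and KO5, so its place in gibberellin synthesis is not settled here. Its difference was 1.15 ± 0.43, and it lost its call without endosperm replicate 1, endosperm replicate 3 or embryo replicate 4 (adjusted p = 0.0652, 0.053 and 0.0705). The receptor gene gid1, the F-box gene GID2 and KAO, an oxidase of gibberellin synthesis, were lower by −1.76 ± 0.12, −1.91 ± 0.14 and −2.06 ± 0.25 as deposited and lost these calls after quantile normalisation. For abscisic acid 1 of 24 was higher and 3 were lower, near the shares of all genes. SAPK kinases of osmotic and abscisic acid signalling parted, with SAPK3 at 1.90 ± 0.21, SAPK1 at −2.51 ± 0.15 and SAPK5 at −2.69 ± 0.21.

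Defence genes did not share 1 pattern, where 5.32% of all genes were higher and 15.2% lower under both scalings. Diterpenoid phytoalexins are antimicrobial compounds of rice made from geranylgeranyl diphosphate. Of 16 genes listed for their synthesis 9 were higher in endosperm and 0 lower under both scalings, with a median difference of 1.53 (2.55 after quantile normalisation). The list shares KO1 (LOC4341343), KO1 (LOC4341347) and KO5 with the gibberellin list. CPS2, a diterpene cyclase, read 8.60, 8.03 and 8.58 in endosperm and 6.07, 4.78 and 5.34 in embryo, a difference of 3.0 ± 0.54. CPS4, the cyclase of the momilactone branch, read 8.60, 8.17 and 8.55 against 6.69, 5.80 and 5.48, a difference of 2.45 ± 0.55. In both genes all endosperm arrays lay above all embryo arrays, and embryo replicate 1 was the highest of its group. KSL7, a kaurene synthase-like enzyme of the phytocassane branch, was higher by 2.69 ± 0.44.

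Of 15 chitinases and pathogenesis-related proteins 3 were higher and 1 lower, beside 5.32% and 15.2% of all genes. The chitinases Cht2 and Cht10 differed by 2.75 ± 0.36 and −3.42 ± 0.17. GER4, a germin-like protein, read 5.06, 4.45 and 5.69 in endosperm and 12.41, 12.03 and 12.14 in embryo, a difference of −7.12 ± 0.29. The lectin gene Agglutinin was lower by −6.78 ± 0.40, and ML, a mannose-binding lectin, by −5.19 ± 0.25. FOR1 (LOC4343645), a protein with leucine-rich repeats of the polygalacturonase inhibitor type, was lower by −4.90 ± 0.21. Of 15 phenylpropanoid and flavonoid genes 1 was higher and 4 lower, beside the same shares of all genes. CHS, chalcone synthase, the entry enzyme of flavonoid synthesis, was lower by −4.06 ± 0.23, and CHI, chalcone isomerase, by −1.92 ± 0.12 in the deposited values only.

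For the basic machinery of the cell the call depended on the scaling, as it did over all genes. Of all genes 47.8% were lower as deposited and 15.2% under both scalings, and under both the lists below were near that share. As deposited, 20 of 22 genes for cytosolic ribosomal proteins were lower in endosperm, but 4 under both scalings, and the median went from −1.57 to −0.63. The same held for 16 proteasome genes (12 and 2), 24 genes of folding in the endoplasmic reticulum (18 and 3) and 15 of the citric acid cycle and respiration (12 and 2). RPL7A and RPL5, proteins of the large ribosomal subunit, were among those called under both, at −2.13 ± 0.05 and −2.06 ± 0.09, as were the proteasome lid subunit gene RPN7 at −2.45 ± 0.08 and the mitochondrial porin VDAC1 at −2.30 ± 0.13. After centring on the 75th percentile the differences of RPL7A and RPL5 were −0.88 and −0.82 and no longer reached the size for a call. AOX1, an alternative oxidase of mitochondria, was higher in endosperm by 2.72 ± 0.19.

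**Figure D4:**
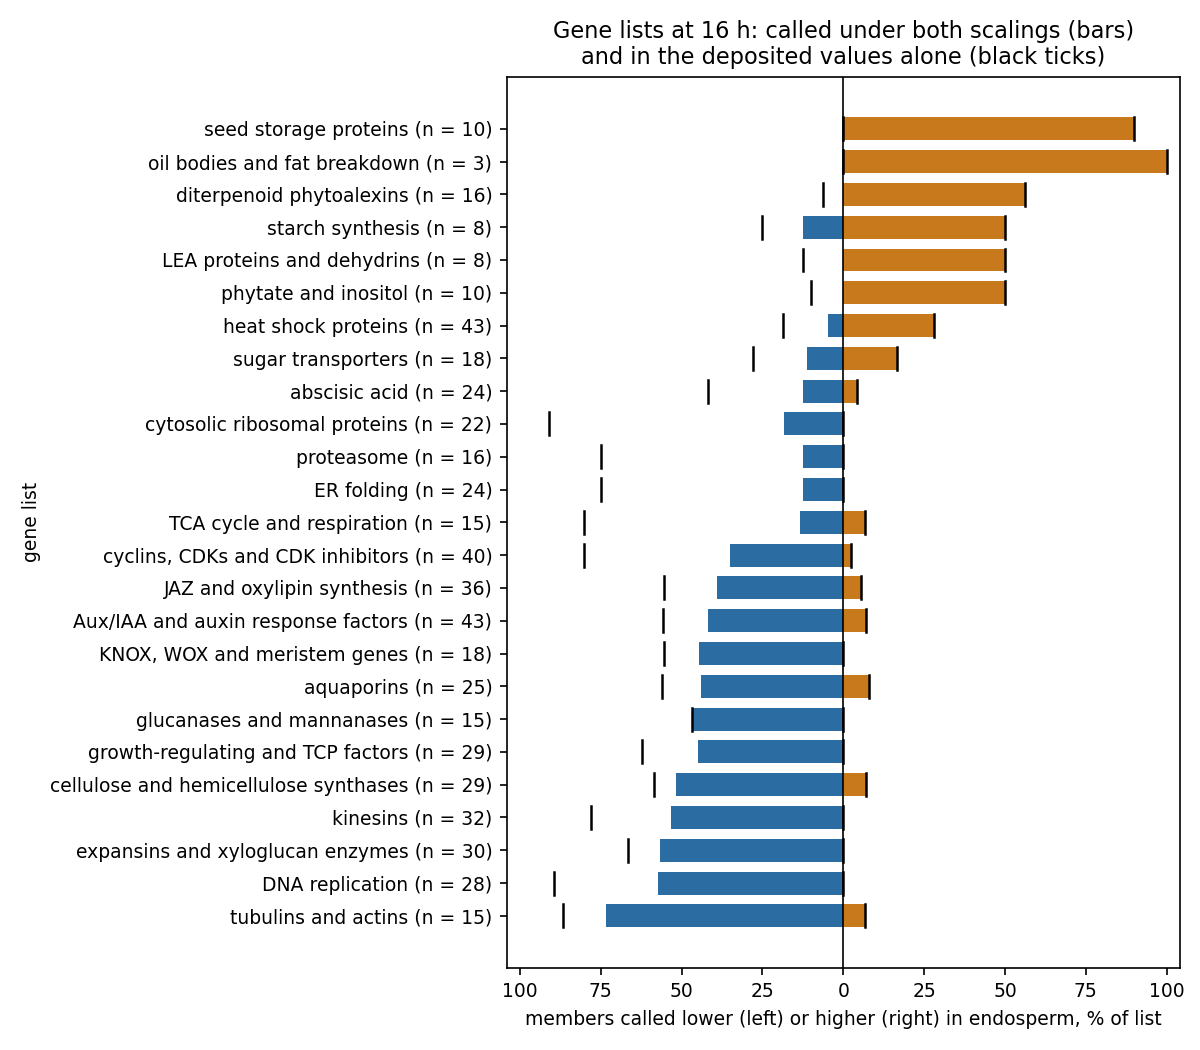
Percentage of the members of selected gene lists called lower (left, blue) or higher (right, orange) in endosperm at 16 h under both scalings. Black ticks give the calls in the deposited values alone. The lists shown are a selection from the 56 lists, and some lists near the shares of all genes are not shown. Storage proteins (9 of 10) reach far to the right, wall, cytoskeleton and division lists to the left, and ribosomal proteins have a long gap between bar (4 of 22) and tick (20 of 22).

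Part of the differences at 16 h were also called in the dry seed. The contrasts at 0 and 16 h share no arrays. At 0 h 767 genes were called higher in endosperm (4.28%) and 8333 lower (46.5%) in the deposited values. The calls at 16 h had to hold under both scalings, which removed none of the 953 higher genes but kept 2721 of 8565 lower ones. The shares of the 767 and of the 8333 given next therefore cannot be compared between the directions. Of the 953 genes higher at 16 h, 463 (48.6%) were also called higher at 0 h, which is 60.4% of the 767, while 428 were not called and 62 were lower at 0 h. Of the 2721 lower genes, 1493 (54.9%) were lower at 0 h, when 46.5% of all genes were, which is 17.9% of the 8333, while 1197 were not called and 31 were higher. RSUS2 was 1 of those 31, with 7.58 in endosperm and 5.31 in embryo at 0 h. Among the storage genes all 9 were already higher at 0 h.

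From 0 to 16 h more genes passed the test for a change in embryo than in endosperm, in the deposited values. In embryo 24.4% of genes rose and 16.7% fell, against 15.4% and 7.46% in endosperm. These shares were not counted under another scaling. The part of the floor and of the different value distributions of the tissues in them was not tested. The tissue difference itself, tested as 16 h minus 0 h, moved towards endosperm for 11.2% of genes and towards embryo for 14.2%, or 5.97% and 6.85% of probe sets. The comparisons of this and the next paragraphs share the 16 h arrays, so their values are set side by side. For 9 of 10 storage genes the difference grew, because the embryo signal fell in 9 and the endosperm signal passed the test for a change in 0. RAG1 went from 7.98 ± 0.04 (SD, n = 3) to 4.40 ± 0.89 in embryo and from 13.31 to 13.51 in endosperm. SUS4 was not called different between the tissues at 0 h, with 11.34 in endosperm and 11.71 in embryo, and fell by 1.03 in endosperm and by 5.37 in embryo. TIP3-1 and rab25 were likewise not called different at 0 h and fell by 4.90 and 5.14 in embryo. PXG gained 4.56 ± 0.46 in its difference, GLUA1 4.39 ± 0.80 and CPK12, a calcium-dependent kinase, 4.33 ± 0.32. ETR4, an ethylene receptor, gained 4.82 ± 0.36 because it fell from 9.75 to 3.34 in embryo, which left it near the floor in both tissues.

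Towards embryo, several of the largest moves came from genes near the floor in both dry tissues. EXPB2 rose by 7.39 ± 0.37 in embryo, from 2.56 to 9.95, and was at the floor in endosperm at 16 h. BGLU12 and AT4 moved by −7.48 ± 0.51 and −6.71 ± 0.55 in their tissue difference, and IAA12 by −6.09 ± 0.39. RSUS2, which was not near the floor in dry endosperm, moved by −6.17 ± 0.53, with a rise of 6.81 ± 0.37 in embryo. Amylases departed from this split. AMY1A rose in both tissues, from 7.33 to 13.14 in endosperm and from 7.35 to 13.48 in embryo, and its wide error comes from the 0 h arrays, with an SD of 2.34 in embryo. AMY3E rose in endosperm by 3.25 ± 0.32, from 7.15 to 10.41, and read 10.76 and 10.81 in embryo, a change that did not pass the test. The test of the difference between these changes gave 3.20 ± 0.45. Diterpenoid genes rose in both tissues, 11 of 16 in endosperm and 10 of 16 in embryo. CPS4 rose by 4.71 ± 0.55 and 3.37 ± 0.55, and its tissue difference moved by 1.34 ± 0.78, which did not pass the test.

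**Figure D5:**
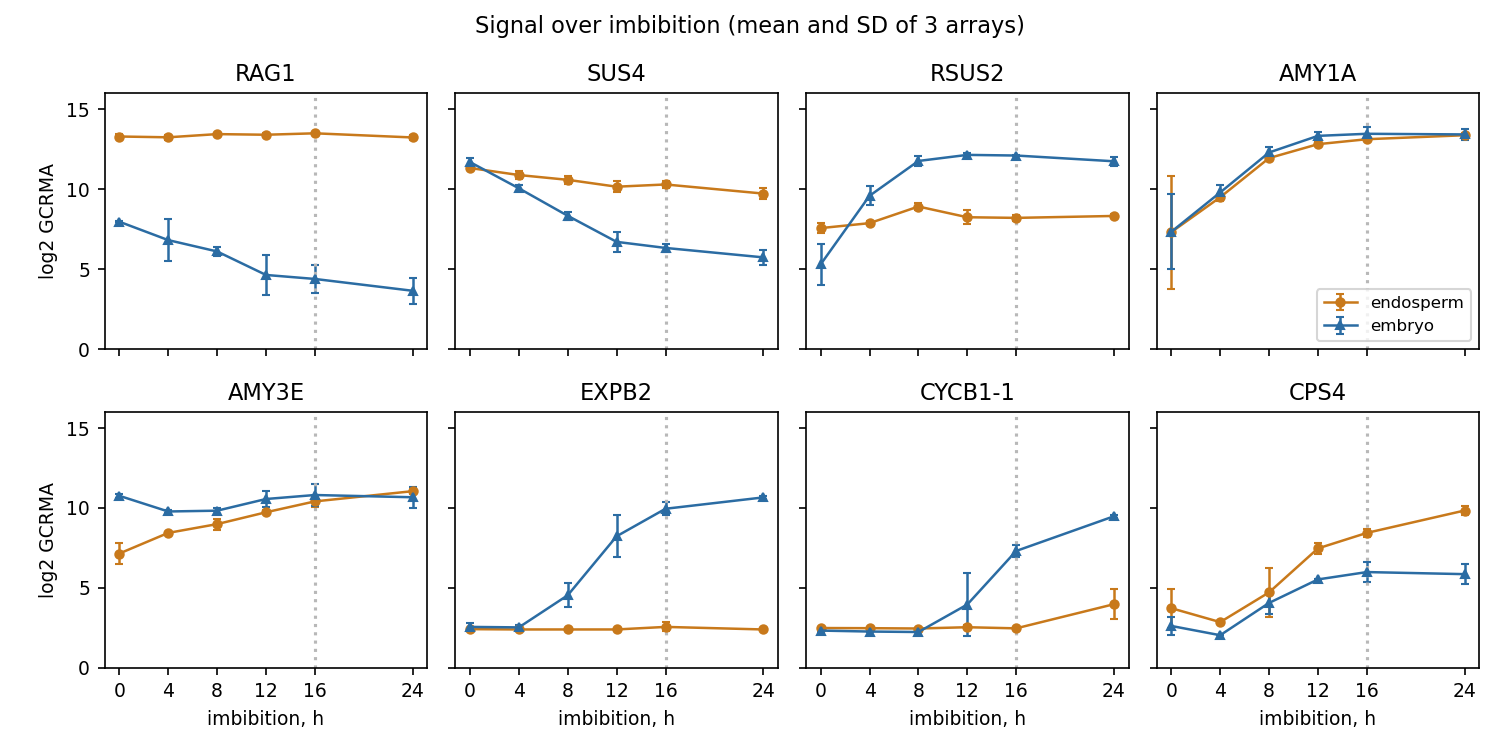
Mean log2 GCRMA signal (SD of 3 arrays as bars) of 8 genes over 0 to 24 h of imbibition in endosperm (orange circles) and embryo (blue triangles), with 16 h marked by a dotted line. RAG1 and SUS4 fall in embryo, RSUS2, EXPB2 and CYCB1-1 rise there, AMY1A rises in both, and AMY3E in endosperm reaches the embryo level by 16 h.

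Against 12 h few moves of the tissue difference passed the test. It had moved towards endosperm for 1 gene (0.00559%) and towards embryo for 69 (0.385%), or 0.00350% and 0.173% of probe sets. The 99 probe sets towards embryo became 56 with harvest day as a block and 41 to 165 with single arrays left out: 50 without endosperm replicate 1, 56 without endosperm replicate 3, 41 without embryo replicate 1 and 165 without embryo replicate 4. The 5 named genes with the largest moves towards embryo were mostly mitotic: CYCB2 (LOC4342121) at −3.46 ± 0.76, CYCB1-1 at −3.42 ± 0.72, KIN12C at −3.30 ± 0.69 and CYCB2 (LOC4336670) at −2.71 ± 0.59, with ILL3, of the family that frees auxin from its amino acid conjugates, at −2.71 ± 0.59. CYCB1-1 in embryo read 2.33 ± 0.10 in the dry seed, 3.96 ± 1.95 after 12 h, 7.31 ± 0.38 after 16 h and 9.48 ± 0.09 after 24 h, so that the 12 h arrays were the most spread. These calls were lost with harvest day as a block (adjusted p = 0.116 for CYCB1-1) and when single 16 h arrays were left out (0.0743 to 0.12 for CYCB1-1 without any 1 endosperm array or without embryo replicate 1). The other 4 named genes also lost their calls without any 1 endosperm array or without embryo replicate 1, and some of them without embryo replicate 4 or 5 (adjusted p = 0.0543 to 0.183). ILL3 also lost its call after quantile normalisation over all arrays (0.0808).

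Against 24 h the tissue difference at 16 h stood more towards endosperm for 2.11% of genes and more towards embryo for 0.709%, or 1.05% and 0.346% of probe sets. The named genes of the first kind had a higher embryo signal at 24 h than at 16 h. GER2, a germin-like protein, read 3.78 ± 1.0 at 16 h and 9.29 ± 1.1 at 24 h in embryo (16 h minus 24 h of the tissue difference 5.50 ± 0.49). EXPA1, an alpha-expansin, was at the floor in both tissues at 16 h and read 7.0 ± 0.61 in embryo at 24 h (4.44 ± 0.20). MT-I-1b, a metallothionein, read 4.06 and 7.69 in embryo at these times (4.11 ± 0.37). GER1, another germin-like protein, read 3.73 and 7.83 (4.10 ± 0.49), and BURP2, a BURP domain protein, 4.75 and 9.51 (3.90 ± 0.52). MT-I-1b was still higher in endosperm at 16 h, by 3.18 ± 0.26.

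In the other direction the endosperm signal of all 5 named genes was higher at 24 h than at 16 h. AMY3A read 9.79 in endosperm at 0 h, 6.52 at 16 h and 9.70 at 24 h, while embryo stayed at the floor from 12 h on, which gave −3.17 ± 0.44. CYP71Z7 and KO5, oxidases of diterpenoid synthesis, read 6.25 and 4.03 in endosperm at 16 h and 8.11 and 5.91 at 24 h, and gave −2.53 ± 0.56 and −2.48 ± 0.40. CHS, for which the embryo signal went from 10.72 to 9.49, gave −1.88 ± 0.32 and the chitinase Cht6 −1.41 ± 0.39, of which Cht6 lost its call after quantile normalisation over all arrays (adjusted p = 0.0806) and without endosperm replicate 2 or 3 or embryo replicate 1 or 4 (0.0845 to 0.133). With harvest day as a block CYP71Z7 and Cht6 were not called (adjusted p = 0.0743 and 0.0917). CPS2 and CPS4 read 8.40 and 8.44 in endosperm at 16 h and 10.66 and 9.84 at 24 h, with moves of −1.64 ± 0.76 and −1.53 ± 0.78 that did not pass the test.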

How the data were processed

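The authors deposited log2 values of 36 Affymetrix rice arrays; per the submitters' processing notes they were made with GCRMA, which corrects probe background, normalises arrays and summarises probes. GCRMA values carry a floor, and the sources used here do not say whether both tissues were normalised together. Arrays were assigned to groups by the labels' tissue and time. From the deposited log2 values, limma 3.58.1 (R 4.3.3) fitted 12 group means over 36 arrays, with empirical Bayes moderation and Benjamini-Hochberg adjustment over 57194 probe sets. The number of arrays, 3 per group, limits the precision. The 6 arrays at 16 h were also quantile normalised and fitted alone.

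Genes were named through GEO's platform annotation, updated with RefSeq symbols: 22436 probe sets had 1 gene, 95 several (not named) and 34663 none here. The brightest probe set stood for a gene. Named were, per direction, the 10 largest differences among named genes called under both scalings with separate arrays, the 5 largest among genes of at least 6 in both tissues, up to 3 members of each of 56 lists in its main direction and 1 in the other, the tissue markers, and the 5 largest moves per direction against 0, 12 and 24 h. Members, lists and tests were chosen with earlier results of these data known. A planned count of promoter motifs was not run, because promoter sequences were not used here. The comparisons with each tissue's 0 h arrays and the tissue contrast at 0 h were added after seeing the data.

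In simulated data of the same size, the fit called 48 of 50 probe sets changed by 1.5 and 50 of 50 changed by 3 (log2), with 1 false call. The simulated noise was independent and normal around a single mean per probe set. It had no difference in scale between tissues, no floor, no harvest days and no shared replicate deviations. It therefore gives no rate of false calls for the real comparisons. Same-numbered arrays deviated together (correlation over 0.1) in 8 of 18 pairs, and replicate numbers were not taken as pairs. The correlations of 16 h arrays were −0.04 to 0.09 with 0 h, −0.03 to 0.37 with 12 h and −0.02 to 0.5 with 24 h. All 3 embryo pairs between 16 and 24 h were over 0.1 (0.19 to 0.5, against −0.02 to 0.17 in endosperm). The main tests against 12 and 24 h did not model such shared deviations. Alternatives covered scaling, arrays fitted, moderation, dim and cross-hybridising probe sets, minimum fold, harvest day, replicate block and each array left out.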

Additional observations from a re-analysis of the deposited data

Results flagged for a closer look

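The tissue difference at 16 h was tested against that at 0, 12 and 24 h, and the calls are gathered here. Against 0 h it moved towards endosperm for 3414 probe sets and towards embryo for 3915. Against 12 h the counts were 2 and 99, and the 99 became 41 without embryo replicate 1, 50 and 56 without endosperm replicates 1 and 3, and 165 without embryo replicate 4. Against 24 h they were 599 and 198.

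Against 0 h the named genes that moved most towards endosperm were ETR4 (4.82), PXG (4.56), GLUA1 (4.39), SUS4 (4.34) and CPK12 (4.33, log2). In all 5 the embryo signal fell, and any fall in endosperm was smaller. Towards embryo they were BGLU12 (−7.48), EXPB2 (−7.25), AT4 (−6.71), RSUS2 (−6.17) and IAA12 (−6.09), in which the embryo signal rose and that of endosperm did not pass the test. Against 12 h no named gene moved towards endosperm, and those towards embryo were CYCB2 (LOC4342121, −3.46), CYCB1-1 (−3.42), KIN12C (−3.30), CYCB2 (LOC4336670, −2.71) and ILL3 (−2.71).

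Against 24 h the difference at 16 h was further towards endosperm for GER2 (5.50), EXPA1 (4.44), MT-I-1b (4.11), GER1 (4.10) and BURP2 (3.90), and further towards embryo for AMY3A (−3.17), CYP71Z7 (−2.53), KO5 (−2.48), CHS (−1.88) and Cht6 (−1.41). The calls of CYP71Z7 and Cht6 were lost with harvest day as a block (adjusted p = 0.0743 and 0.0917).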

How the results depend on the processing

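Scaling moved the 16 h counts most. Against 1651 probe sets higher and 13320 lower in endosperm, quantile normalisation gave 3891 and 4429 over the 6 arrays and 3956 and 4394 over all 36, 75th percentile centring 36345 and 3541, and no minimum fold 17795 and 22584. Leaving out single arrays gave 1598 to 1683 and 13132 to 13441, the harvest day block 1757 and 13254. Without a minimum fold the difference from 0 h had 8022 probe sets towards endosperm and 5962 towards embryo, and that from 24 h 1054 and 658. From 12 h, the 2 towards endosperm became 8 (bright probe sets), 10 (harvest day block), 10 (no minimum fold) and 1 to 6 with single arrays left out. The 99 towards embryo became 56 with the harvest day block and 41 to 165 with single arrays left out: 50 without endosperm replicate 1, 56 without endosperm replicate 3, 41 without embryo replicate 1 and 165 without embryo replicate 4. The cause was not tested.

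The replicate block, where the tissues share only number 1, gave 1655 and 13328 at 16 h, 8 and 121 against 12 h, and 621 and 236 against 24 h, where embryo numbers deviated together. It changed no other call given here.

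Of 123 called genes with 16 h values in the text, 120 kept direction and call with each array left out. HSP16.9B, KO1 (LOC4341343) and CYP71Z7 were the other 3. All 123 had the same direction in replicate 1 alone, the only pair from 1 harvest day. These arrays also gave the calls, and many of the genes were picked for large differences with fully separate arrays. Their direction in replicate 1 was thus largely fixed in advance, and the influence of harvest day cannot be judged from it. Quantile normalisation of the 6 arrays lost 8: OC-I, IPK2, Dhn1, KAO, GID2, gid1, CHI and Cht6. Centring on the 75th percentile lost 11 and centring on the spike-ins 3, RAB21, KO1 and CYP71Z7. The uncalled differences of AMY1A (0.91 after centring) and AMY3E (0.74 and 0.73 after quantile normalisation over 6 and 36 arrays, 0.84 after centring) changed sign. The harvest day block also lost the 24 h calls of CYP71Z7 and Cht6 (adjusted p = 0.0743 and 0.0917) and the 16 h call of KO1 (0.111). Signals near the GCRMA floor limit the size of many differences.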

Other observations

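Of 74 calcium signalling kinases and sensors 5 were higher and 10 lower in endosperm under both scalings, and of 49 metal transporters 2 were higher and 3 lower. Among 31 MADS-box factors 24 were at the floor in both tissues, 3 were higher and 1 lower. Of 31 cytokinin genes 0 were higher and 5 lower, and of 22 genes of small RNA pathways 2 were higher and 3 lower. Of 18 catalases, peroxiredoxins and ascorbate peroxidases 1 was higher and 1 lower. Over all genes 5.32% were higher and 15.2% lower.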
